A study of Mus musculus with 6 samples.

Results

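Caveolins, cavins and the proteins of the caveolar neck were examined in lungs of mice kept in hypoxia for 7 days. The group held 8 genes, taken as every probe set whose platform symbol was Cav1, Cav2, Cav3, Cavin1, Cavin2, Cavin3, Ehd2 or Pacsin2. Each of the 8 had 1 probe set, out of 24704 named genes on the arrays. The control group was 3 Nfat5fl/fl mice, which carried floxed alleles of the osmosensitive transcription factor NFAT5 and received the oil miglyol. The knockout group was 3 Nfat5(EC)-/- mice, in which the gene was ablated in endothelial cells (ECs) with tamoxifen, 1 mg into the peritoneum on each of 5 days. The labels describe adult males and females aged 10 to 12 weeks, without the sex of each animal and rested for 2 to 3 weeks before use. Their lungs were flushed with cold Ringer solution before lysis. Genotype and tamoxifen differed together between the groups and cannot be told apart, and the sources used here do not name the Cre line. The series states 4 mice per group, and its authors left out preparations with contaminating tissue or with an inadequate expression response to hypoxia.

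Caveolae are flask-shaped pits of the plasma membrane that are abundant in lung capillary endothelium and in alveolar type 1 cells, as well as in fat and muscle. Caveolins insert into the inner leaflet of the membrane, and cavins form a coat around them from the cytosol. Neck proteins with an EHD or an F-BAR domain shape the opening and hold the pit at the cell surface. Caveolae buffer membrane tension, take part in uptake across the endothelium and bind the endothelial nitric oxide synthase.

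All values are log2 expression from RMA (robust multi-array average), and every array had a median near 2.97 and a lower quartile near 2.02 on that scale. A fold change is the knockout mean minus the control mean in log2 units, with the moderated standard error (SE) and adjusted p of limma over all 24704 genes. Nfat5 had a log2 fold change of −2.23 ± 0.23 (adjusted p = 0.0015), and the sources used here do not say whether its probes cover the deleted part. Over all genes 25.5% (6292 genes) passed an adjusted p of 0.05, with 12.5% higher and 13% lower in the knockout. The groups did not overlap, in the sense that all knockout arrays lay on one side of all control arrays, at 41.9% of genes. The lung genes Sftpc, Sftpb, Scgb1a1, Ager and Foxj1 were measured on every array. On the log2 scale, control arrays had summed levels between 13.72 and 13.84, while knockout arrays spanned 13.05 to 13.72. Of these genes only Foxj1 passed, and it was higher (1.59 ± 0.18, limma adjusted p = 0.0018). Without passing, Ager lay above the controls on every knockout array (0.64 ± 0.25) and Scgb1a1 below them (−0.59 ± 0.19). Sftpc and Sftpb overlapped between the groups.

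Expression of the caveolar genes split in the knockout lungs. The caveolin Cav1 and the cavin Cavin2 fell 2.22-fold and 2.87-fold, while the central cavin, Cavin1, rose 2.08-fold (limma, adjusted p = 0.0066, 0.0031 and 0.0089, n = 3 per group). Cav2, Cav3, Cavin3, Ehd2 and Pacsin2 did not pass the threshold. Thus 3 of 8 genes passed, 1 higher and 2 lower, beside 25.5% of all genes. The groups did not overlap at 4 of the 8 genes, beside 41.9% of all genes. Knockout arrays lay above the controls at Cavin1 and Cavin3, beside 21.9% of all genes, and below them at Cav1 and Cavin2, beside 20%. When genes below the median of mean level were left out, 3 of the 7 remaining caveolar genes passed, beside 46.9% of the genes tested. These counts are near the shares over the whole table. The median log2 fold change of the 8 genes was −0.16, against 0.04 for all genes.

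**Figure D1:**
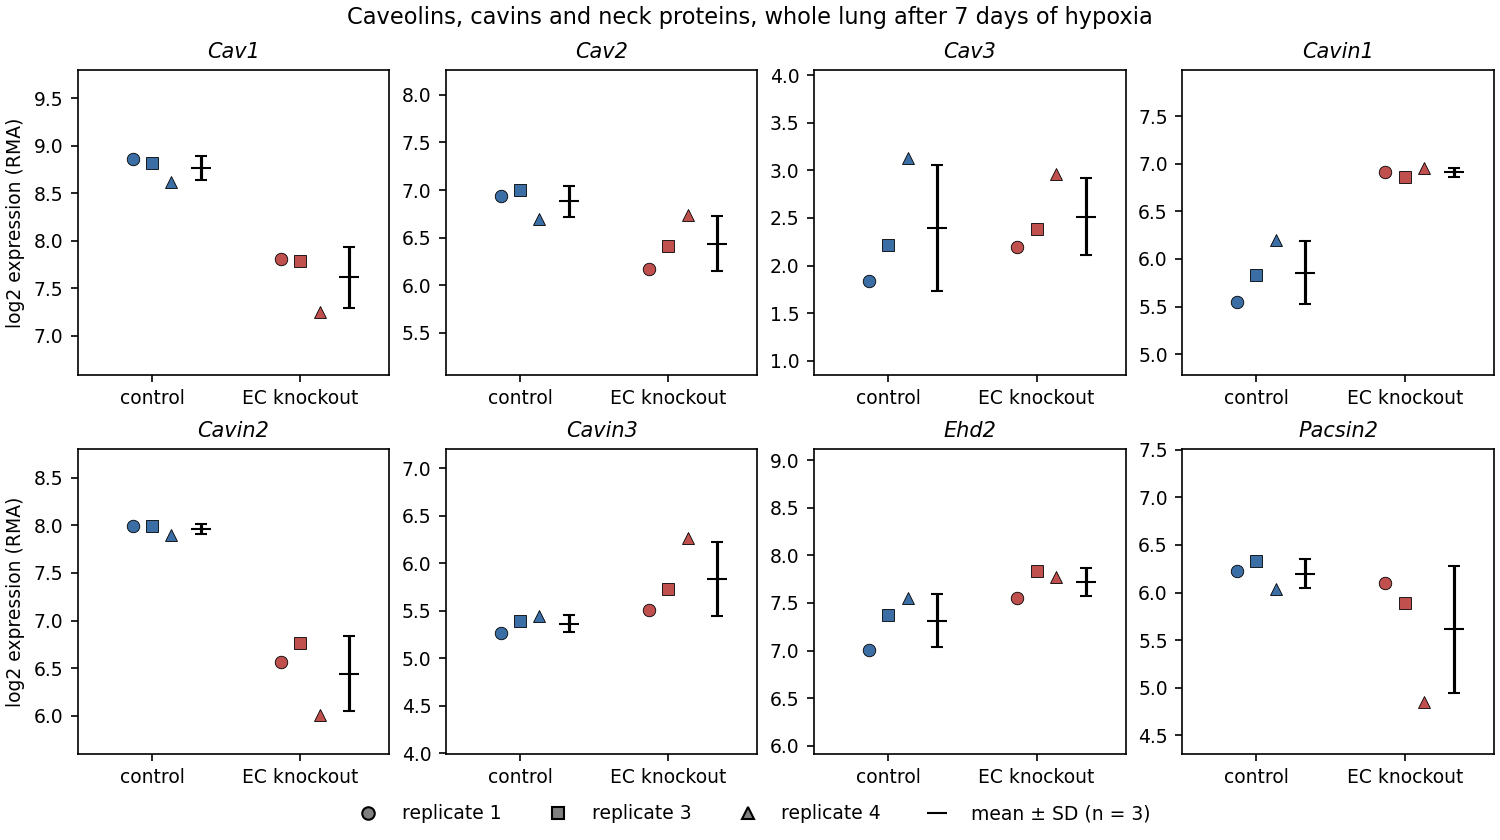
Log2 expression of the 8 genes on each of the 6 arrays, with control arrays in blue, knockout arrays in red and symbols for the replicate numbers; bars give the mean and SD of 3 arrays, and every panel spans the same number of log2 units. Cav1 and Cavin2 are lower on all 3 knockout arrays and Cavin1 is higher on all 3, while Cav2, Cav3, Ehd2 and Pacsin2 overlap between the groups.

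Among the caveolins, Cav1 encodes the protein that is required for caveolae in endothelium and epithelium. Its level was 8.86, 8.82 and 8.62 on control replicates 1, 3 and 4, and 7.81, 7.79 and 7.25 on knockout replicates 1, 3 and 4. The knockout arrays lay at least 0.81 log2 units below the lowest control array, and knockout replicate 4 was the lowest of all. The means were 8.77 ± 0.13 and 7.62 ± 0.32 (SD, n = 3 each), with a log2 fold change of −1.15 ± 0.22 (95% interval −1.64 to −0.66). The call held when any 1 array was left out, at −1.25 to −0.97.

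Cav2 encodes the caveolin that joins CAV1 in mixed oligomers and depends on it to leave the Golgi complex. Both genes lie on chromosome 6 (GRCm38.p6), Cav2 at chr6:17281185-17289130 and Cav1 17.2 kb further at chr6:17306335-17341328. The level of Cav2 was 6.94, 7.00 and 6.70 in the controls and 6.17, 6.41 and 6.73 in the knockouts, in the same order of replicates. The groups overlapped, because knockout replicate 4, the lowest array for Cav1, was the highest knockout array for Cav2. The log2 fold change was −0.44 ± 0.21 (95% interval −0.93 to 0.04, limma adjusted p = 0.17). The Cav1 estimate of −1.15 lay outside this interval, but the interval of Cav1, −1.64 to −0.66, overlapped it. Cav2 passed when each array's trend with gene length was removed over protein-coding genes (−0.71, limma adjusted p = 0.037). Within each array, the log2 level of Cav2 minus that of Cav1 was −1.92, −1.82 and −1.92 in the controls and −1.64, −1.38 and −0.52 in the knockouts. This difference was larger on every knockout array than on every control array, by 0.71 in the mean. The exact two-sided permutation test gave p = 0.1, the smallest that 3 against 3 arrays can give, and 0.13 after adjustment over the 4 differences tested.

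Cav3 encodes the caveolin of skeletal and heart muscle and of some smooth muscle. Its level was 1.84, 2.21 and 3.13 in the controls and 2.19, 2.38 and 2.97 in the knockouts. Several of these values lie near the arrays' lower quartile, where a dim probe set cannot be told from an absent transcript. The groups overlapped fully, and the fold change of 0.12 ± 0.35 (95% interval −0.66 to 0.90, limma adjusted p = 0.85) turned negative without control replicate 1 (−0.16) or knockout replicate 4 (−0.11). Of 6 skeletal muscle markers 0 passed (limma; 0 also at an unadjusted p under 0.05), and their summed level varied from 5.65 to 8.98 between control arrays and from 6.70 to 9.02 between knockout arrays. The 2 arrays highest for Cav3 differed in these markers, with 8.98 on control replicate 4 and 6.70 on knockout replicate 4. Of 6 heart muscle markers Myh6 and Actc1 passed and were higher, with summed levels of 7.61 to 7.98 in controls and 8.06 to 8.93 in knockouts. Both lost their calls without control replicate 1 or 3, Myh6 also without control replicate 4, and Actc1 also without knockout replicate 1 or 3.

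Among the cavins, Cavin1 encodes the subunit without which the coat does not form. Its level was 5.54, 5.83 and 6.20 in the controls and 6.92, 6.86 and 6.96 in the knockouts. The control arrays were spread over 0.66 log2 units while the knockout arrays lay close together, and the lowest knockout array was 0.66 above the highest control. The means were 5.86 ± 0.33 and 6.91 ± 0.05 (SD, n = 3 each), with a log2 fold change of 1.05 ± 0.21 (95% interval 0.57 to 1.54). The call held when any 1 array was left out, at 0.90 to 1.23. With the level of Xist as a covariate it ended (0.88, limma adjusted p = 0.0505). Xist, the transcript of the inactive X chromosome, reached 8.22 on control replicate 1 and lay at 2.03 to 2.37 on the other arrays. It was thus high on 1 of 3 control arrays and on 0 of 3 knockout arrays, so the sexes may not be balanced between the groups. Control replicate 1 was also the lowest array for Cavin1. Xist as a covariate nearly marks that array alone, so this fit is close to leaving the array out. Without control replicate 1 the fold change of Cavin1 was 0.90 (limma adjusted p = 0.044).

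Cavin2 encodes a cavin that binds phosphatidylserine and bends the membrane, and its loss depletes caveolae in lung endothelium. Its level was 7.99, 7.99 and 7.90 in the controls and 6.56, 6.76 and 6.002 in the knockouts. The controls agreed within 0.1 log2 units, and the highest knockout array was 1.14 below the lowest control. The means were 7.96 ± 0.05 and 6.44 ± 0.39 (SD, n = 3 each), with a log2 fold change of −1.52 ± 0.23 (95% interval −2.04 to −0.998). It was the largest change of the 8 genes, and the call held when any 1 array was left out, at −1.68 to −1.30.

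Cavin3 encodes a cavin that binds protein kinase C delta and influences the traffic of caveolae. Its level was 5.26, 5.39 and 5.44 in the controls and 5.50, 5.73 and 6.26 in the knockouts. The groups did not overlap, by a gap of 0.06 log2 units, and knockout replicate 4 stood apart from the rest. The log2 fold change of 0.47 ± 0.23 (95% interval −0.06 to 0.99, limma adjusted p = 0.18) did not pass.

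The log2 levels of the cavins and of Cav1 were also set against each other within each array. Because probe sets bind with different strengths, only the change of such a difference between the groups can be read. Cavin2 minus Cavin1 was 2.45, 2.16 and 1.70 in the controls and −0.36, −0.10 and −0.96 in the knockouts, a change of −2.57. Cavin1 minus Cav1 was −3.32, −2.99 and −2.42 in the controls and −0.89, −0.93 and −0.29 in the knockouts, a change of 2.20. For each of these the groups did not overlap. This follows from the single genes, since all knockout arrays lay above the controls for Cavin1 and below them for Cav1 and Cavin2. The exact permutation test therefore had to give p = 0.1, the smallest possible (0.13 after adjustment), and adds nothing to the single genes. Cavin3 minus Cavin1 changed by −0.59 with overlapping groups (exact permutation p = 0.2, adjusted 0.2). Profiles over the 6 arrays were compared for the 28 pairs of the 8 genes by root mean square difference, after each gene's mean was subtracted. Cav1 and Cavin2 were the most similar at 0.20 log2 units, followed closely by Cavin3 and Ehd2 at 0.22, and Cavin1 and Cavin2 the least similar at 1.33. This measure includes the difference between the groups.

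**Figure D2:**
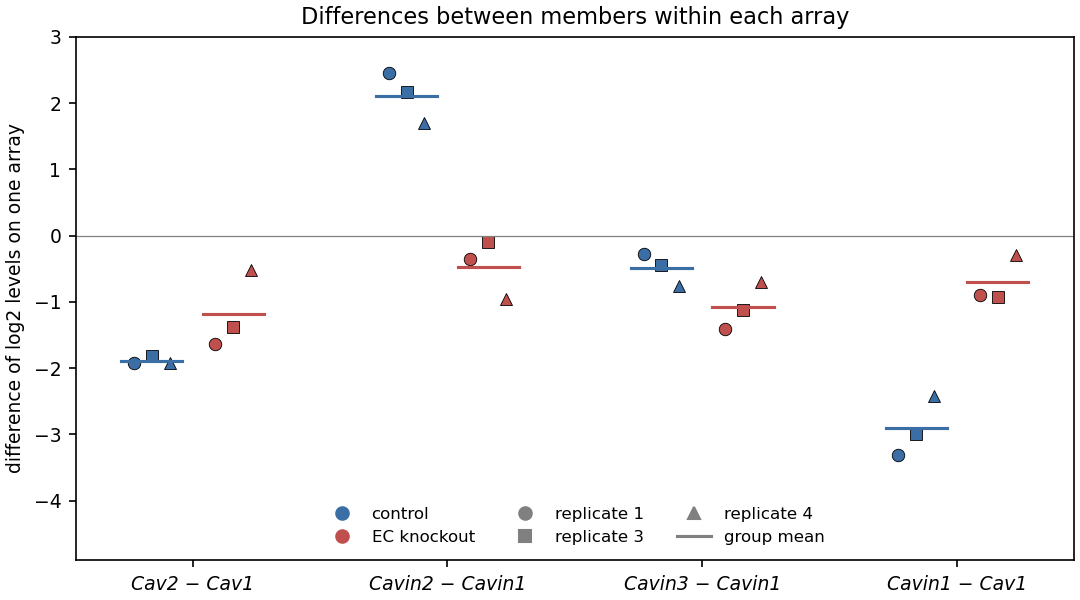
Difference of log2 levels between 2 genes on the same array, for 4 pairs, with control arrays in blue, knockout arrays in red and lines at the group means. Cavin2 minus Cavin1 lies between 1.70 and 2.45 in controls and between −0.96 and −0.10 in knockouts, and Cavin3 minus Cavin1 overlaps between the groups.

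The neck proteins gave smaller differences than Cav1, Cavin1 and Cavin2. Ehd2 encodes an ATPase that forms rings at the neck and keeps caveolae at the surface. Its level was 7.01, 7.38 and 7.55 in the controls and 7.55, 7.83 and 7.77 in the knockouts. Control replicate 4 and knockout replicate 1 met at 7.55, and control replicate 1 was the lowest, as for Cavin1. The log2 fold change was 0.41 ± 0.21 (95% interval −0.07 to 0.88, limma adjusted p = 0.20). Pacsin2 encodes an F-BAR protein that curves the membrane and recruits dynamin. Its level was 6.23, 6.33 and 6.04 in the controls and 6.10, 5.89 and 4.85 in the knockouts. Knockout replicate 4 was far below the other arrays, and the other knockout values lay near the controls. The log2 fold change was −0.58 ± 0.31 (95% interval −1.30 to 0.13, limma adjusted p = 0.21), and −0.20 without knockout replicate 4.

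The starts of Cav1, Cavin2 and Cavin1 are shown because these genes passed the threshold and did so in opposite directions. The sequences are the 250 bases before the RefSeq start (GRCm38.p6), printed 5′ to 3′ along the gene, at chr6:17306085-17306334 on the plus strand for Cav1, chr1:51288876-51289125 on the plus strand for Cavin2 and chr11:100970618-100970867 on the minus strand for Cavin1. Capitals mark GGAAA, the core shared by NFAT family sites, and the GC box GGGCGG, each searched on both strands.
Cav1: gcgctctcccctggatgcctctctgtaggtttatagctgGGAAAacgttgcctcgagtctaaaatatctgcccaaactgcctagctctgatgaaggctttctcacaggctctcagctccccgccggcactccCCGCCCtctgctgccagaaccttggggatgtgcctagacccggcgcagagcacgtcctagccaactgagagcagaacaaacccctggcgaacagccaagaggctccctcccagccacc
Cavin2: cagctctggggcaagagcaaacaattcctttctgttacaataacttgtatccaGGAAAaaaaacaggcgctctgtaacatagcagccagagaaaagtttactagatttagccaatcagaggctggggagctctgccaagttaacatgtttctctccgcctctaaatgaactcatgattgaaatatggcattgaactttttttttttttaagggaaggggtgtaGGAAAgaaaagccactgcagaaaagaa
Cavin1: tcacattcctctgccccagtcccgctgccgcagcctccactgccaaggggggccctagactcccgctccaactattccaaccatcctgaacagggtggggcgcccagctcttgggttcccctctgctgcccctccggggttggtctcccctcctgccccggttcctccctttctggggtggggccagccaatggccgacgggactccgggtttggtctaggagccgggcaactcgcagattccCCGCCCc
The Cavin2 stretch held GGAAA 2 times and no GC box, and its GC content was 40.4%. The Cav1 stretch held GGAAA 1 time and the GC box 1 time on the other strand, with a GC content of 59.6%. The Cavin1 stretch held the GC box 1 time on the other strand and no GGAAA, with a GC content of 67.6%. Among the caveolar genes that did not pass, the Pacsin2 stretch held GGAAA 1 time, and those of Cav2, Cav3 and Ehd2 held none. A link between these letters and the fold changes was not tested. Over all 32851 such stretches in the table, the median GC content was 52.4%, GGAAA occurred in 55.6% and the GC box in 32.7%. The longer core TGGAAA, which contains GGAAA, occurred in 18.6% of all stretches and the full tonicity element TonE, which contains both, in 4.31%. Neither was found in the stretch searched for each of the 7 caveolar genes that had an entry (all but Cavin3), the one at the outer start of the gene, which says only that these letters are not in these windows. Cav1, Cavin1 and Pacsin2 have further RefSeq starts, whose stretches were not searched.

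The change in Cavin1 and Cavin2 was set beside gene length, since fold changes over the whole table varied with it. The 2 genes have nearly the same span, 13.9 kb for Cavin1 (chr11:100956736-100970617) and 13.8 kb for Cavin2 (chr1:51289126-51302960). They lie in the same length group, the middle one of 5, where 15.1% of protein-coding genes were higher, 12.3% lower and the median log2 fold change was 0.06. Cav1 spans 35.0 kb, in a group with 10.4% higher, 23.6% lower and a median of −0.14. Pacsin2, at 89.0 kb, lies in the longest group, with 31.5% lower and a median of −0.33, and Cavin3, at 1.58 kb, in the shortest, with 14.6% higher and a median of 0.17. With the length trend removed, Cav1 stood at −0.99, Cavin1 at 0.91 and Cavin2 at −1.67, and each passed (limma, adjusted p = 0.011, 0.015 and 0.0035).

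**Figure D3:**
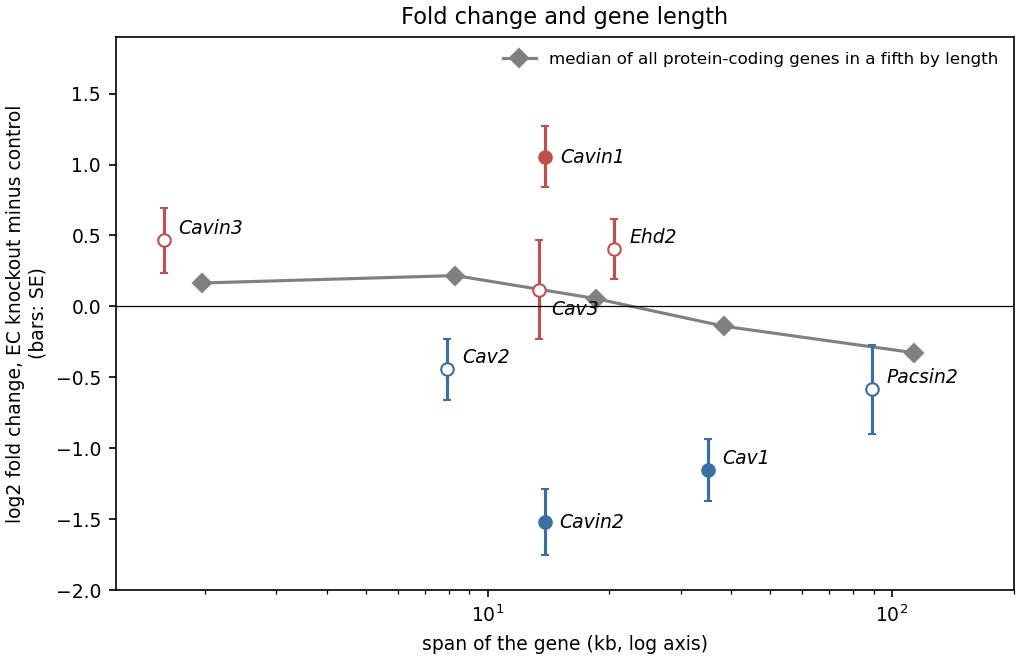
Log2 fold change of the 8 genes against the span of each gene in kb on a log axis, with SE bars, red above 0 and blue below, filled where the adjusted p was below 0.05; grey diamonds are the medians of all protein-coding genes in 5 groups by length. Cavin1 (1.05) and Cavin2 (−1.52) have nearly the same span and lie on opposite sides of the diamonds.

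Whole lung was measured, so fewer cells of a type and less RNA per cell cannot be told apart. Endothelial markers moved both ways: of 14, the markers Vwf, Egfl7, Cldn5, Eng and Sox18 were higher, and Cdh5, Tek, Pecam1, Erg and Emcn were lower. Their summed level lay between 11.73 and 12.02 on control arrays and between 11.32 and 11.41 on knockout arrays, and no marker was at 0. Alveolar type 1 markers had Aqp5 higher and Clic5, Rtkn2, Akap5 and Emp2 lower of 8, with summed levels of 11.67 to 11.95 in controls and 11.44 to 11.67 in knockouts. The endothelial sum was lower on every knockout array, while the alveolar type 1 ranges met at 11.67. Such a sum is set mostly by its brightest markers. The median log2 fold change was 0.16 for the endothelial markers and −0.76 for the alveolar type 1 markers. The part of these cells in the falls of Cav1 and Cavin2 was not tested. Of 7 smooth muscle markers Smtn was higher, with summed levels of 8.65 to 9.23 and 9.20 to 9.44, and of 7 fibroblast markers Col1a1 and Col1a2 were higher and Dcn lower, at 10.32 to 10.36 and 9.98 to 10.32. Adipocyte markers gave 0 calls of 6 (limma; 2 at an unadjusted p under 0.05), and their sum was highest on control replicate 1 (8.09, against 6.49 to 6.97 on the other arrays), the array on which Cavin1 and Ehd2 were lowest. Of 6 thymus markers Foxn1 was higher, with sums of 4.86 to 5.44 in controls and 5.06 to 5.39 in knockouts. The median snoRNA level, a mark of RNA composition, lay between 4.00 and 4.20 on control arrays and between 6.43 and 7.43 on knockout arrays, and its part in the caveolar values was not tested. Without control replicate 3 the calls of Akap5, Cldn5, Col1a2, Emcn, Emp2, Eng, Erg, Foxn1, Smtn and Sox18 were lost, without control replicate 1 those of Cldn5, Col1a2, Emcn, Eng, Foxn1 and Sox18, without control replicate 4 those of Emp2 and Emcn, and without knockout replicate 3 that of Emcn.

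Relatives of the cavins and neck proteins also moved in both directions, with 2 of 6 higher, 1 lower and a median of 0.29. Ehd1, an EHD protein of recycling endosomes, had levels of 5.04, 5.18 and 5.26 in the controls and 7.198, 6.85 and 6.88 in the knockouts. It rose by 1.82 ± 0.19 log2 units (SE; limma adjusted p = 0.0016), with every knockout array above every control. Pacsin1, the mainly neuronal member of the Pacsin family, rose by 1.02 ± 0.23 (adjusted p = 0.013), and Cavin4, the muscle cavin, had a fold change of −0.64 ± 0.19 (adjusted p = 0.038). Pacsin1 lay at 2.49 to 2.75 in controls and 3.22 to 3.93 in knockouts, and Cavin4 at 2.48 to 2.80 and 1.89 to 2.16, near the lower quartile. The call of Pacsin1 was lost without control replicate 1 or 3, and that of Cavin4 without any 1 control array or without knockout replicate 3 or 4. Pacsin3 stood at 0.68 ± 0.25 and did not pass, nor did Ehd3 and Ehd4.

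Among 13 partners and cargo of caveolae, 2 rose, 2 fell and the median was 0.26. Plvap, which builds the diaphragm across the caveolar opening in endothelium, had levels of 5.17, 5.603 and 5.50 in the controls and 6.86, 6.43 and 7.28 in the knockouts. It rose by 1.43 ± 0.25 (SE; limma adjusted p = 0.0052), and the kinase Src, which phosphorylates CAV1, by 1.42 ± 0.23 (0.0037). The fatty acid receptor Cd36 fell, from 9.71, 9.63 and 9.13 in the controls to 7.91, 7.52 and 8.73 in the knockouts, a log2 fold change of −1.44 ± 0.32 (adjusted p = 0.012). The plasma membrane calcium pump Atp2b1 stood at −1.90 ± 0.40 (adjusted p = 0.010). The call of Cd36 was lost without control replicate 1 or 3, and that of Atp2b1 without control replicate 1. Nos3, the endothelial nitric oxide synthase that binds CAV1, did not pass, with levels of 4.12 to 4.34 in controls and 4.30 to 4.62 in knockouts (0.28 ± 0.19, 95% interval −0.15 to 0.71, limma adjusted p = 0.32).

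Other membrane coats were read for comparison. Of the flotillins, which mark domains distinct from caveolae, Flot2 rose by 0.81 ± 0.22 (SE; limma adjusted p = 0.025) and Flot1 stood at 0.73 ± 0.31 without passing. The call of Flot2 was lost without any 1 control array or without knockout replicate 3 or 4. Of 11 measured genes of the clathrin coat 5 rose and 1 fell, with a median of 0.45. Those that rose were Epn1 (1.496 ± 0.21), the adaptor subunits Ap2a1 (1.47 ± 0.22) and Ap2s1 (1.17 ± 0.19), Dnm1 (1.19 ± 0.24) and the light chain Cltb (0.99 ± 0.21). The heavy chain Cltc stood at −1.54 ± 0.37. The calls of Cltb and Cltc were lost without control replicate 3, and that of Cltc also without control replicate 1. Genes that supply sphingolipid, phosphatidylserine and cholesterol to the membrane had 2 of 10 higher and 2 lower, with a median of −0.42. Sptlc2, a subunit of the first enzyme of sphingolipid synthesis, stood at −1.51 ± 0.22 and Sgms1, a sphingomyelin synthase, at −0.97 ± 0.19. The lipoprotein receptor Scarb1 stood at 0.80 ± 0.21 and the phosphatidylserine synthase Ptdss2 at 0.90 ± 0.28. The calls of Scarb1 and Ptdss2 were lost without control replicate 1 or 3 or without knockout replicate 4, and that of Ptdss2 also without control replicate 4 or knockout replicate 1. With Xist as a covariate the calls of Pacsin1, Cavin4, Cd36, Atp2b1, Flot2, Cltb, Cltc, Dnm1, Scarb1 and Ptdss2 ended, as did those of the cell type markers Pecam1, Cldn5, Eng, Sox18, Emcn, Akap5, Emp2, Col1a2, Myh6, Actc1 and Foxn1. The fold changes of these genes kept their sign, at −1.755 for Atp2b1, −1.44 for Cltc, −1.33 for Cd36 and 0.97 for Cltb. With the length trend removed the calls of Erg, Emcn and Actc1 ended. Those of Ehd1, Src, Plvap, Epn1, Ap2a1, Ap2s1, Sptlc2 and Sgms1 held under every alternative run. These lists are described beside the median of 0.04 and the 25.5% of all genes called, with no test of a list.

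**Figure D4:**
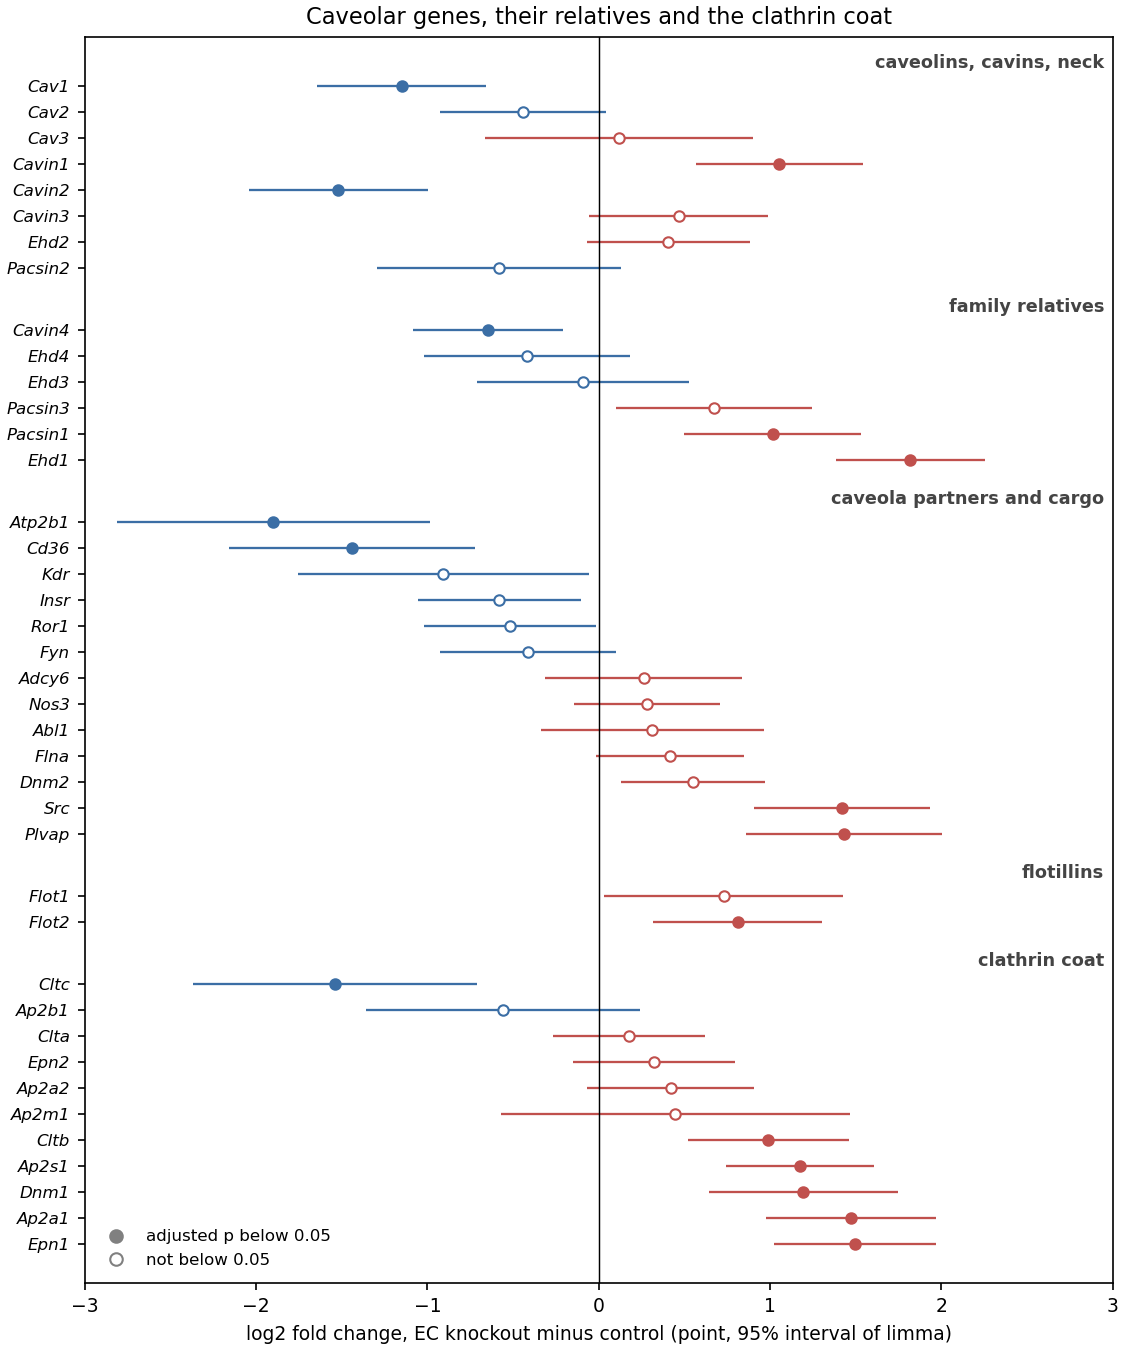
Log2 fold change, knockout minus control, with limma's 95% interval for the 8 caveolar genes, their relatives, partners and cargo, the flotillins and the clathrin coat; red is above 0, blue below, and filled points had an adjusted p below 0.05. Each list except the flotillins holds filled points on both sides of 0, from Atp2b1 at −1.90 to Ehd1 at 1.82.

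Genes whose profiles over the 6 arrays were closest to Cav1, out of 11220 brighter genes, were Srsf11, Parp14 and Tasor2, with root mean square differences of 0.046, 0.052 and 0.054 log2 units. Their log2 fold changes were −1.13, −1.12 and −1.09. Those closest to Cavin1 were Calm3, Tgm2 and Tmed3, at 0.059, 0.066 and 0.071, with fold changes of 1.15, 1.12 and 0.92. All were picked for closeness on these same arrays, so fold changes near those of Cav1 and Cavin1 follow from the choice.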

How the data were processed

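Values were the authors' deposited log2 expression, 1 value per probe set and array, made with RMA according to the submitters' processing notes. Control replicate 1 held 24668 distinct values and every other array 10964. The reason for this difference is not known here, and its part in the results was not tested. The sources used here do not give its version, the probe set definition or the genome build. RMA scales arrays to common quantiles, so a shift shared by all genes is removed. The table held 25428 probe sets, 24705 with 1 gene symbol, 0 with several and 723 unnamed here. A single symbol had 2 probe sets, and the brighter of them was used. Entrez identifiers of 24673 probe sets matched the RefSeq table of GRCm38.p6. No filter on dim genes was applied, no detection calls were given, and precision is limited by the number of arrays. Nothing in the labels ties samples to litters, so dependence through litters could not be modelled. The p-values of limma set the difference between the groups against the moderated spread between these samples.

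Knockout and control arrays were compared with limma 3.58.1 in R 4.3.3 (lmFit, eBayes), with Benjamini-Hochberg adjustment over 24704 genes and a threshold of 0.05. The procedure was tested on simulated data. The genes, the lists of relatives, partners, coats, lipid genes and cell type markers, and the tests were chosen with earlier results of these data known. Named were the 8 genes, Nfat5, up to 4 genes of smallest p in each list described, the called genes of a list where 5 or fewer were called in a direction, and the 3 genes closest in profile to Cav1 and to Cavin1 among those above the median level, leaving out predicted genes, microRNAs, snoRNAs and receptor and immunoglobulin segments. Nos3, Ehd3 and Ehd4 were named after their values were seen. Alternatives were 2 level filters, 2 scalings, an intensity trend, array weights, a replicate block, unnamed probe sets, averaged probe sets, protein-coding genes alone and with the length trend removed (lowess, span 0.3), Xist as a covariate, and each array left out. Promoter sequences are RefSeq's.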

Additional observations from a re-analysis of the deposited data

How the results depend on the processing

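Cav1 and Cavin2 kept their direction and their call under all 18 alternatives, at −1.25 to −0.97 and −1.68 to −1.30 log2 units. Cavin1 kept its direction under all 18, at 0.88 to 1.23, and its call under 17. Not all of these could move a caveolar gene: each has 1 probe set, so averaging probe sets left its values unchanged. Cavin1 lost its call only with Xist as a covariate, and Cav2 gained one only with the length trend removed; the cause was not tested. Cav3, never past the threshold, changed sign when the length trend was removed (−0.037) and when Xist was a covariate (−0.19), and ranged from −0.16 to 0.49 when 1 array was left out, below 0 without control replicate 1 or knockout replicate 4. The count of the 8 caveolar genes past the threshold was 2 to 4 over the alternatives, and 3 without any 1 array. The count over all genes was 2827 with Xist as a covariate and 2882 to 6155 without 1 array, lowest without control replicate 3 (2882) and control replicate 1 (3141). Repeated quantile normalization and centring on the brighter genes kept the 3 caveolar calls. The arrays already had common quantiles from RMA, so both changed the values little and are weak checks. It is not known whether equal replicate numbers mark pairs. Deviations of same-numbered arrays correlated at 0.06, −0.01 and 0.004, and those of differently numbered arrays at −0.11 to 0.11. These values cannot decide it, since a pairing need not show in them. With a replicate block 3 caveolar genes and 6082 genes in all passed, and of the listed genes Cavin4, Actc1 and Ptdss2 lost their calls. Ptdss2 also lost its call with the intensity trend and with array weights. Signal near the lower quartile limits Cav3 and Cavin4.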
